A study of Mus musculus with 20 samples.

Results

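Intermittent hypoxia, which is repeated short falls in inspired oxygen, was compared with normoxia in the livers of male mice whose testes had been removed (orchiectomy, ORX). The libraries were chosen by their labels: 5 libraries of orchiectomized mice kept in intermittent hypoxia (ORX_IH) and 5 of orchiectomized mice kept in normoxia (ORX_Nx), which makes 10 of the 19 libraries analysed. All 10 mice had therefore lost the testicular source of testosterone, and the groups differed in the 2 weeks of exposure. Sham-operated mice under intermittent hypoxia (Sham_IH, n = 5) or normoxia (Sham_Nx, n = 4) served as the second arm of the design and are used here only where the responses are set side by side. Mouse 1 of Sham_Nx, among the 20 mice of the labels, is not analysed here. No strain or age is stated in the labels, and each library is named here by its group and mouse number. Messenger RNA of whole liver was sequenced, so every value is an average over the cells of the tissue.

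Low oxygen is sensed by prolyl hydroxylases, which mark hypoxia-inducible factors for destruction when oxygen is plentiful. When oxygen falls these factors persist and raise genes of glycolysis, angiogenesis and iron handling, and the cycles of reoxygenation in intermittent hypoxia add oxidative stress. The liver is also a target of androgens, which act on it largely through the pulsatile secretion of growth hormone, and the flavin-containing monooxygenases named in the series title are among the liver enzymes that differ between the sexes. They oxidize the nitrogen or sulfur of many drugs and of amines from the diet.

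Albumin, the main secreted protein of hepatocytes, lay between 47900 and 90650 counts per 1000000 counts (CPM) in the 10 libraries, and the summed level of 25 male-biased liver genes was 2022 to 5989 CPM in the orchiectomized mice against 20471 to 51249 CPM in the sham-operated mice. Total estimated counts were 30.6 to 69.6 M in the 10 libraries. A floor of 3 counts equals at most 0.0838 CPM in them, which covers counting error only. The test took in 16164 of 36106 genes after a filter on low counts.

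Of the 10 libraries 4 stood apart, and list medians and some single genes are given with all mice and without some of these 4. A gene given only with all mice may still depend on them. ORX_IH 1 and ORX_IH 2 carried skeletal muscle RNA. The 18 markers of fast muscle fibres summed to 1107 CPM in ORX_IH 1 and 656 CPM in ORX_IH 2, against 6.14 to 7.04 CPM in the other ORX_IH libraries and 6.68 to 14.3 CPM in ORX_Nx. Skeletal alpha-actin (Acta1) was at 225 and 129 CPM in ORX_IH 1 and ORX_IH 2 and at most 1.51 CPM in the other 8 libraries. ORX_IH 1 also held RNA of exocrine pancreas, with 278 CPM summed over 20 acinar markers against 5.76 to 13.7 CPM in the other 9 libraries. ORX_Nx 4 and ORX_Nx 5 had the highest macrophage marker sums, at 1569 and 1156 CPM, and the highest acute phase sums, at 37446 and 29048 CPM. ORX_Nx 5 was in addition lowest in albumin and in the pericentral enzyme Cyp2e1, at 2439 CPM against 5646 to 7845 CPM in the other 9 libraries.

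**Figure D1:**
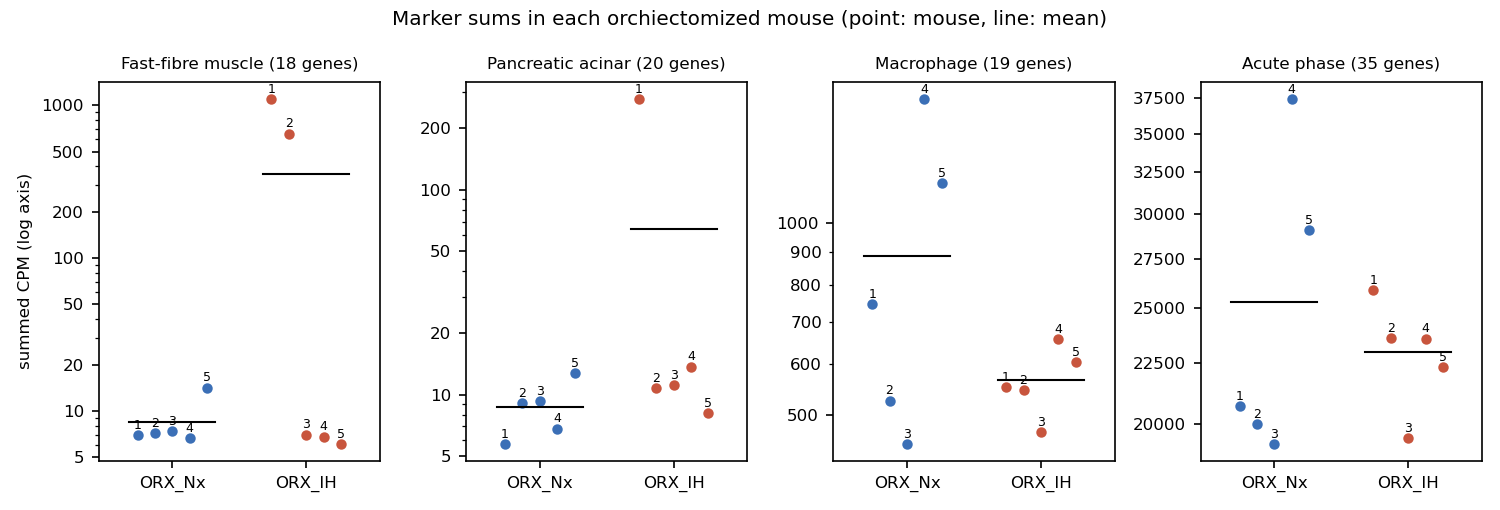
Summed CPM (log axis) of 18 fast-fibre skeletal muscle markers, 20 pancreatic acinar markers, 19 macrophage markers and 35 acute phase genes in each orchiectomized mouse; points are mice with their number, and the line is the group mean. Muscle markers are high in ORX_IH 1 and 2, acinar markers in ORX_IH 1, and macrophage and acute phase genes in ORX_Nx 4 and 5.

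Few single genes passed the test of intermittent hypoxia in orchiectomized mice. Between ORX_IH and ORX_Nx, 12 of 16164 genes (0.0742%) changed: 3 rose (0.0186%) and 9 fell (0.0557%), by edgeR's quasi-likelihood test with Benjamini-Hochberg (BH) adjustment over all genes at a threshold of 0.05. The genes that rose were Cyp39a1, Adgrl2 and Ptpn3. The genes that fell were Aldh3b3, Il1rn, Ifi213, Pparg, Hexa, Zfpm1, Tmem184b, Scpep1 and Pik3c3. In the plot of these genes by mouse, the groups overlap only for Pparg.

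These 12 lie at the edge of the threshold. Their adjusted p-values ran from 0.0489 to just under 0.05 in edgeR, 48 more genes lay between 0.05 and 0.06, and 448 genes (208 higher, 240 lower) lay under 0.1. At an unadjusted edgeR p under 0.05, 1186 genes (7.34%) were higher and 1572 (9.73%) lower. The groups did not overlap for 190 genes that were higher (1.18%) and 181 that were lower (1.12%) in ORX_IH. DESeq2 called 314 genes higher and 392 lower, all 12 among them, and with size factors of the RLE kind edgeR called 7 higher and 9 lower, so the share of higher genes among the calls was 43.8% in place of 25%.

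The count of calls turned on single libraries. Without ORX_IH 1 and 2, edgeR called 0 of 16276 genes (0%), with 2142 genes at an unadjusted p under 0.05 and a smallest adjusted p of 0.0870, while all 12 genes kept their direction. It was also 0 without ORX_Nx 4 and without ORX_IH 2, and 232 without ORX_Nx 3. Without ORX_Nx 4 and 5 edgeR called 40 genes, but only 5 of the 12 were among them: Ptpn3, Scpep1, Ifi213, Pparg and Tmem184b. The calls for Cyp39a1, Adgrl2, Il1rn, Aldh3b3, Hexa, Zfpm1 and Pik3c3 ended there, with adjusted p-values from 0.0625 to 0.106. The direction of all 12 genes was the same in each of the 34 alternatives run.

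**Figure D2:**
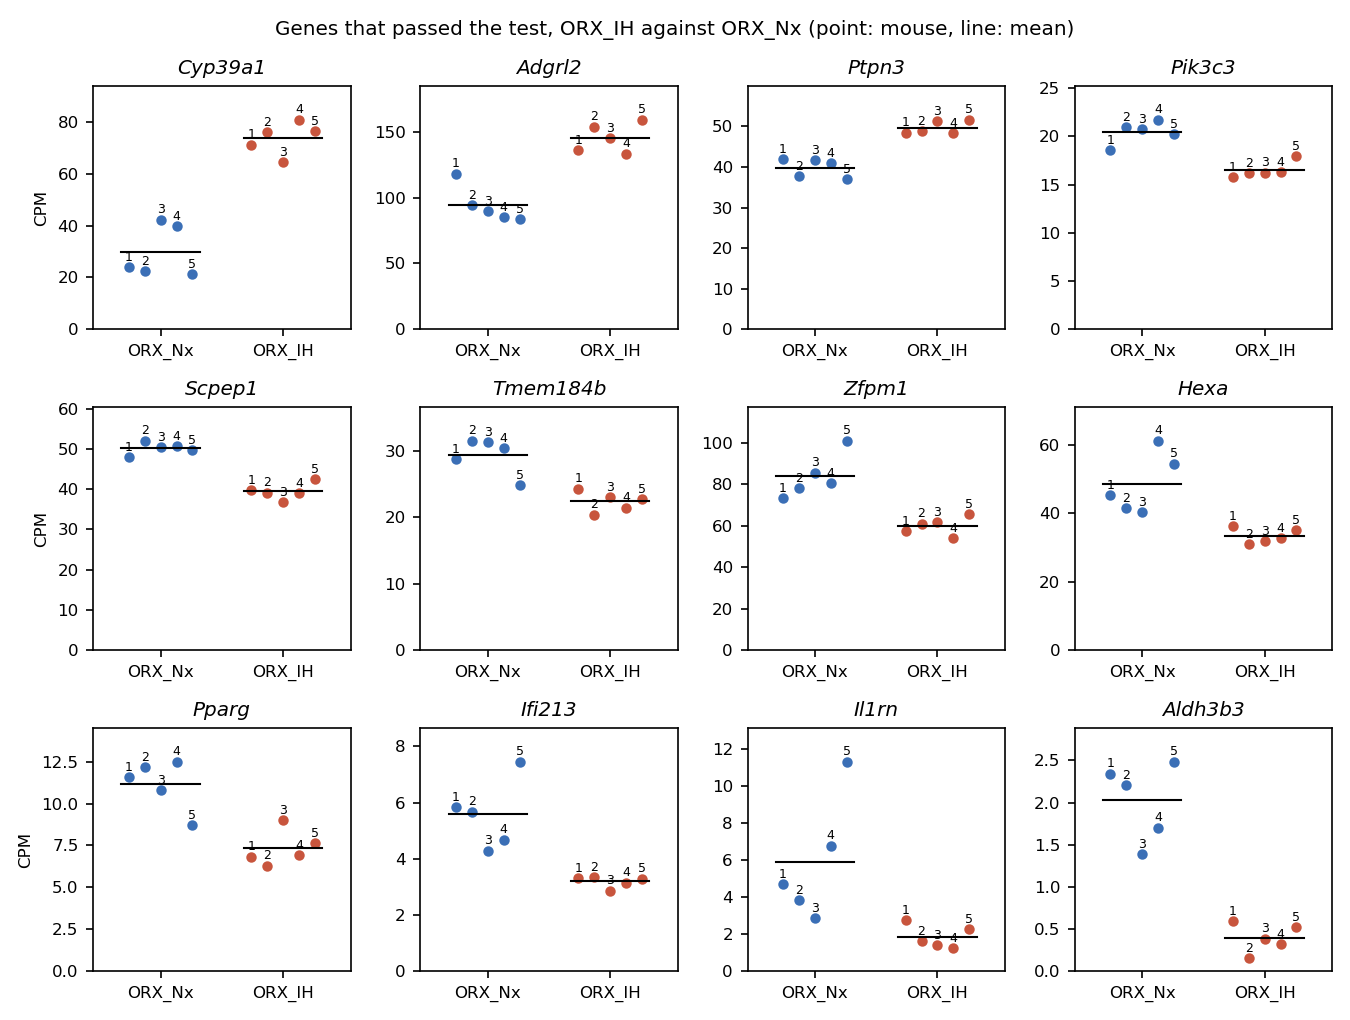
Counts per 1000000 counts (CPM, axes from 0) in each mouse of ORX_Nx and ORX_IH for the 3 genes that rose and the 9 that fell; points are mice with their number, and the line is the group mean. ORX_IH lies above ORX_Nx for Cyp39a1, Adgrl2 and Ptpn3 and below it for the others, with an overlap for Pparg alone.

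Among the genes that rose, Cyp39a1 (ENSMUSG00000023963), a cytochrome P450 that hydroxylates oxysterols on a side route of bile acid synthesis, moved most. It was at 24.1, 22.4, 42.3, 39.9 and 21.2 CPM in ORX_Nx mice 1 to 5 and at 71.3, 76.2, 64.5, 80.9 and 76.4 CPM in ORX_IH mice 1 to 5. Every ORX_IH mouse was above every ORX_Nx mouse. Cyp39a1 rose by 1.30 ± 0.24 (log2 ± SE), a 2.46-fold difference, and its two-sided exact permutation p over the 10 libraries was 0.00794, the smallest that 5 against 5 mice can give. The rise was 1.30 without ORX_IH 1 and 2, 1.32 without ORX_Nx 4 and 5 (edgeR BH-adjusted p = 0.0625), and 0.85 ± 0.25 in sham-operated mice (edgeR BH-adjusted p = 0.144).

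Adgrl2 (ENSMUSG00000028184) encodes latrophilin-2, an adhesion G protein-coupled receptor. It was at 118, 94.1, 89.6, 85.3 and 83.6 CPM in ORX_Nx and at 135.9, 153.9, 145.1, 133.3 and 159.1 CPM in ORX_IH. The groups did not overlap, and Adgrl2 rose by 0.63 ± 0.12 (log2 ± SE). In sham-operated mice the difference was 0.19 ± 0.12 (edgeR BH-adjusted p = 0.546).

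Ptpn3 (ENSMUSG00000038764), a cytoplasmic protein tyrosine phosphatase, gave the smallest and tightest rise. It was at 41.9, 37.8, 41.6, 41.0 and 37.0 CPM in ORX_Nx and at 48.4, 48.9, 51.2, 48.3 and 51.6 CPM in ORX_IH. All ORX_IH mice were higher than all ORX_Nx mice, with a rise of 0.32 ± 0.05 (log2 ± SE). Ptpn3 also rose in sham-operated mice, by 0.28 ± 0.06 (edgeR BH-adjusted p = 0.038).

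The largest fall was that of Aldh3b3 (ENSMUSG00000037263), an aldehyde dehydrogenase that oxidizes fatty aldehydes. It was at 2.34, 2.21, 1.39, 1.70 and 2.49 CPM in ORX_Nx and at 0.591, 0.155, 0.386, 0.317 and 0.521 CPM in ORX_IH. The lowest ORX_Nx mouse was above the highest ORX_IH mouse, and Aldh3b3 fell by 2.34 on the log2 scale (SE 0.42). In the 9 sham-operated mice it was at most 0.0808 CPM, so the response there had too few counts to be read.

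Il1rn (ENSMUSG00000026981) encodes the interleukin-1 receptor antagonist, a secreted inhibitor of interleukin-1. It was at 4.70, 3.84, 2.85, 6.78 and 11.3 CPM in ORX_Nx and at 2.74, 1.60, 1.41, 1.22 and 2.25 CPM in ORX_IH. The groups did not overlap, though ORX_Nx 4 and 5 were the highest mice. Il1rn fell by 1.67 on the log2 scale (SE 0.31), and the difference was -1.04 without ORX_Nx 4 and 5 (edgeR BH-adjusted p = 0.0937).

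Ifi213 (ENSMUSG00000073491), an interferon-inducible member of the PYHIN family of DNA-sensing proteins, was at 5.82, 5.67, 4.29, 4.68 and 7.46 CPM in ORX_Nx. It was at 3.301, 3.35, 2.87, 3.15 and 3.29 CPM in ORX_IH, below every ORX_Nx mouse. Ifi213 fell by 0.81 on the log2 scale (SE 0.14). In sham-operated mice the difference was -0.26 ± 0.15 (edgeR BH-adjusted p = 0.484).

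Pparg (ENSMUSG00000000440), the nuclear receptor that drives fat storage and adipocyte differentiation, was at 11.6, 12.2, 10.8, 12.5 and 8.71 CPM in ORX_Nx and at 6.83, 6.29, 9.02, 6.92 and 7.62 CPM in ORX_IH. ORX_IH 3 lay above ORX_Nx 5, so the groups overlapped. Pparg fell by 0.60 on the log2 scale (SE 0.11), with an exact permutation p of 0.0159, and it fell by 0.66 (SE 0.11) in sham-operated mice (edgeR BH-adjusted p = 0.0199).

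Hexa (ENSMUSG00000025232) encodes the alpha subunit of the lysosomal beta-hexosaminidase. It was at 45.4, 41.5, 40.3, 61.2 and 54.5 CPM in ORX_Nx and at 36.1, 31.0, 31.9, 32.7 and 34.97 CPM in ORX_IH. The groups were apart, with ORX_Nx 4 and 5 highest, and the log2 difference was -0.54 ± 0.10, or -0.34 without those mice (edgeR BH-adjusted p = 0.0669). Hexa fell by 0.55 (SE 0.10) in sham-operated mice as well (edgeR BH-adjusted p = 0.0327).

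Zfpm1 (ENSMUSG00000049577), the cofactor FOG1 of GATA transcription factors, was at 73.1, 78.2, 85.6, 80.5 and 101 CPM in ORX_Nx and at 57.5, 61.0, 61.5, 54.1 and 65.4 CPM in ORX_IH. It fell by 0.48 on the log2 scale (SE 0.09) with no overlap. The other 3 falls were small, and these genes lie outside the naming rule and are given because all 12 are. Scpep1 (ENSMUSG00000000278), a serine carboxypeptidase, was at 48.0 to 52.1 CPM in ORX_Nx and at 36.7 to 42.5 CPM in ORX_IH and fell by 0.35 (SE 0.05).

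Tmem184b (ENSMUSG00000009035), a transmembrane protein gene, was at 24.9 to 31.6 CPM in ORX_Nx and at 20.4 to 24.3 CPM in ORX_IH and fell by 0.39 on the log2 scale (SE 0.07). Pik3c3 (ENSMUSG00000033628) encodes the lipid kinase VPS34, which starts autophagosome and endosome formation. It was at 18.5 to 21.7 CPM in ORX_Nx and at 15.8 to 18.0 CPM in ORX_IH and fell by 0.31 (SE 0.05). Neither gene's groups overlapped, and without ORX_IH 1 and 2 the adjusted p-values of the 12 genes lay between 0.154 and 0.184 in edgeR.

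Promoter windows are shown for 5 of these genes: Ptpn3, Pparg and Hexa, which passed in both operations, and Aldh3b3 and Il1rn, which fell most. Each window runs from 250 bases before to 50 bases after an annotated start, is given 5′ to 3′ on the strand of the gene, and comes from RefSeq on build GRCm38.p6, which is older than the build of the counts. Capitals mark the core of the hypoxia response element, ACGTG or GCGTG on either strand, which reads CACGT or CACGC on the opposite strand. Any CACGTG, the E-box, would hold this core as well. The windows are chr4:57301788-57302087 (minus strand) for Ptpn3, chr6:115360894-115361193 (plus strand) for Pparg, chr9:59539290-59539589 (plus strand) for Hexa, chr19:3958558-3958857 (plus strand) for Aldh3b3 and chr2:24336610-24336909 (plus strand) for Il1rn.
Ptpn3: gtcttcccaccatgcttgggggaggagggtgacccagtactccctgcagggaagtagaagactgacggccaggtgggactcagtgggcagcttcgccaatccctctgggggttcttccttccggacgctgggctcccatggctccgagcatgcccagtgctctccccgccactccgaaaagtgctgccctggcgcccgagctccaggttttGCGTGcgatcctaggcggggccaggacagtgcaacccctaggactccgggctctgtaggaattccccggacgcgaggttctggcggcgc
Pparg: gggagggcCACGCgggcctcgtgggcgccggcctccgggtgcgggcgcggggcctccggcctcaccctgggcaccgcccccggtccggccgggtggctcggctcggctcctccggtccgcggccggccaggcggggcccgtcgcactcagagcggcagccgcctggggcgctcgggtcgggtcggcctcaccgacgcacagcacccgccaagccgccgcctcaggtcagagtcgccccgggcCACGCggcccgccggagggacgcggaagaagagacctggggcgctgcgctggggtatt
Hexa: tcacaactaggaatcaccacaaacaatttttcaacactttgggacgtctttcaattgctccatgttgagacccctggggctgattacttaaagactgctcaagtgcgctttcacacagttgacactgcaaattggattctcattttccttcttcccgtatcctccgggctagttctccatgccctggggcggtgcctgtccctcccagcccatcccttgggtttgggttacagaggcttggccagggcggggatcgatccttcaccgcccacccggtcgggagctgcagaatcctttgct
Aldh3b3: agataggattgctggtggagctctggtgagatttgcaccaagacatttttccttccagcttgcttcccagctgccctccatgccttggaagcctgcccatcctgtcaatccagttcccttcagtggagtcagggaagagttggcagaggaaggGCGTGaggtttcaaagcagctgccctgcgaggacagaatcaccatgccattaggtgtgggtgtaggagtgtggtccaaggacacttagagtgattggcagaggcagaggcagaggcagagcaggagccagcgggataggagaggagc
Il1rn: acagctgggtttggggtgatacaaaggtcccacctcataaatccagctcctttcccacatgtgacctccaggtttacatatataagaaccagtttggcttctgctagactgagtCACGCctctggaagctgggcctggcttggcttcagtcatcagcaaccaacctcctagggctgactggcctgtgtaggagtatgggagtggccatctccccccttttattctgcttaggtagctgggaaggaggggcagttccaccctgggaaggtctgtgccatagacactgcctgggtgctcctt
The Pparg window shown holds the core at 2 places, those of Ptpn3, Aldh3b3 and Il1rn at 1 place each, and that of Hexa at none. Pparg and Il1rn each have 2 further windows, at other annotated starts, which hold none. Windows were at hand for 10 of the 12 genes, Cyp39a1 and Pik3c3 not among them. Of their 17 windows, 10 held the core, against 14380 of all 32851 windows (43.8%), and 4 of these 10 are overlapping windows of Tmem184b. By gene, 7 of the 10 had the core in at least 1 window, against 12628 of all 27025 genes in the table (46.7%). A match describes these letters only.

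The 4 flavin-containing monooxygenases described here were higher on average in ORX_IH, and none passed the test. With 4 positive differences and 0 calls, their median log2 difference was 0.41, against -0.01 over all 16164 genes. At an unadjusted edgeR p under 0.05, 3 of the 4 were higher, against 7.34% of all genes tested. The median was 0.48 without ORX_IH 1 and 2, 0.45 without ORX_Nx 4 and 5, and 0.14 in sham-operated mice. Summed over the list, ORX_Nx mice held 697 to 850.3 CPM and ORX_IH mice 932 to 1134 CPM, with no overlap.

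Fmo2, the member that predominates in lung, was at 96.6, 59.1, 38.0, 40.2 and 50.5 CPM in ORX_Nx and at 129, 127, 132, 60.01 and 113.8 CPM in ORX_IH. ORX_IH 4 lay within the ORX_Nx range and the other 4 above it. Its log2 difference was 0.98 ± 0.29 (edgeR BH-adjusted p = 0.102, exact permutation p = 0.0159).

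Fmo4 was at 6.18, 6.87, 5.65, 4.01 and 6.90 CPM in ORX_Nx and at 7.41, 7.37, 7.65, 9.26 and 8.20 CPM in ORX_IH. The groups were apart, and the log2 difference was 0.43 ± 0.14 (edgeR BH-adjusted p = 0.121). Over all genes tested, 1.18% were higher with no overlap. Fmo5, at 349 to 488 CPM in ORX_Nx and 415 to 781 CPM in ORX_IH, gave 0.40 ± 0.14 (edgeR BH-adjusted p = 0.162).

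Fmo1 was at 220 to 361 CPM in ORX_Nx and 284 to 393 CPM in ORX_IH, with a log2 difference of 0.24 ± 0.14 (edgeR BH-adjusted p = 0.396) that was 0.03 without ORX_Nx 4 and 5. Fmo6, with 25 counts over all libraries and at most 6 in any, and Fmo9, with 0 counts, were not tested. For each of the 4 tested genes the difference between the ORX and sham responses was not called, with edgeR BH-adjusted p-values from 0.805 to 0.941. Its 95% interval on the log2 scale was -0.59 to 1.17 for Fmo2 and -0.16 to 0.68 for Fmo4.

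**Figure D3:**
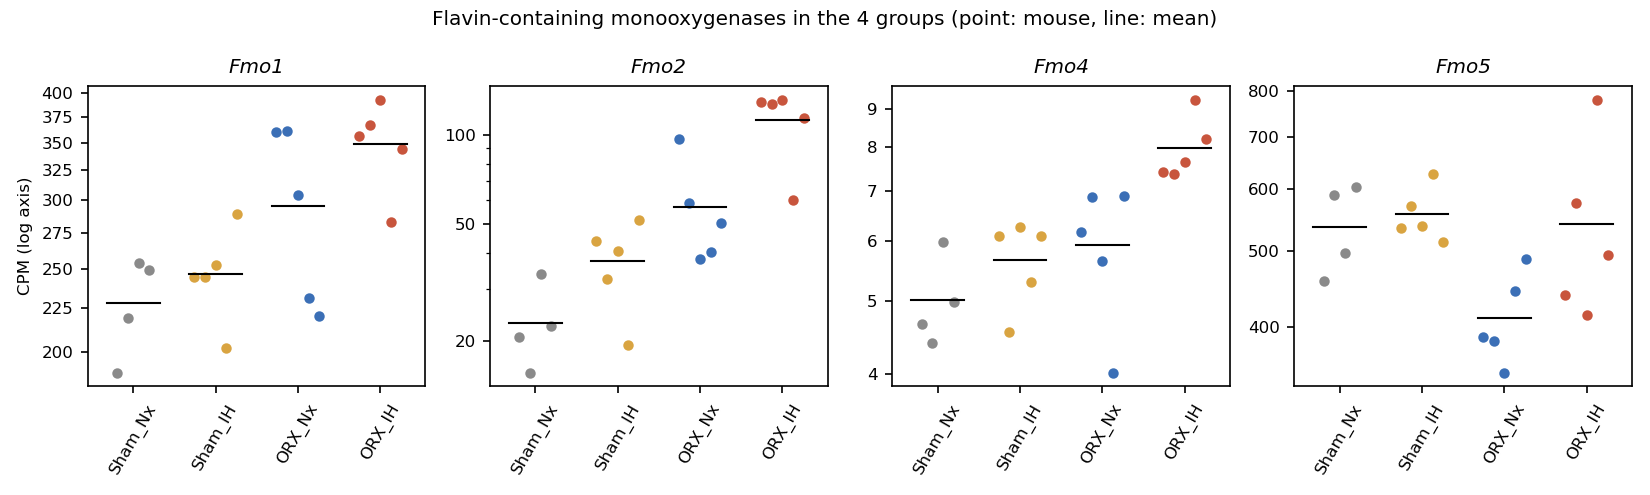
CPM (log axis) of 4 flavin-containing monooxygenases in the 4 groups; points are mice and lines are group means. In orchiectomized mice the groups are apart for Fmo4, and 1 ORX_IH mouse of Fmo2 lies among the ORX_Nx mice.

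Genes of the hypoxia-inducible factor pathway showed no shared direction after 2 weeks. Of 37 genes with counts listed, 36 were tested: 15 had positive and 21 negative differences, and 0 passed in edgeR. At an unadjusted p under 0.05, 3 were higher and 6 lower, against 7.34% and 9.73% of all genes tested. The groups overlapped for each of the 36. The median log2 difference was -0.07, or -0.01 without ORX_Nx 4 and 5. For 26 of the 36 the 95% interval lay within a 2-fold change either way, against 12360 of all genes tested (76.5%).

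Hif1a itself, at 42.8 to 48.0 CPM in ORX_Nx and 35.7 to 47.6 CPM in ORX_IH, gave -0.07 ± 0.07, and Epas1, which encodes HIF-2 alpha, gave 0.22 ± 0.14 (log2 ± SE). Among targets, the angiogenic factor Vegfa gave 0.10 ± 0.10 and the histone demethylase Kdm3a, with the smallest p of the list, gave -0.38 ± 0.10 (edgeR BH-adjusted p = 0.0861). The glycolytic enzymes went in different directions, with Pfkfb3 at 0.59 ± 0.21, Pgk1 at 0.22 ± 0.08 and Ldha at -0.27 ± 0.12. Hmox1, the heme oxygenase of iron and heme turnover, was at -1.03 ± 0.38 with all mice and at 0.15 without ORX_Nx 4 and 5, where it was at 65.8 and 79.7 CPM against 13.4 to 25.8 CPM in the other 8 mice.

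Cell cycle genes were lower in ORX_IH as a list, with 25 of 26 negative, a median log2 difference of -0.63 and 0 calls in edgeR. At an unadjusted p under 0.05, 16 were lower, and 7 had no overlap between groups: Top2a, Ccna2, Mcm2, Mcm4, Bub1, Cdc20 and E2f1. Over all genes tested, 9.73% were lower at that p and 1.12% were lower with no overlap. The median was -0.61 without ORX_IH 1 and 2, -0.42 without ORX_Nx 4 and 5, -0.34 without all 4 and -0.49 in sham-operated mice.

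Mcm2, a subunit of the replicative helicase, was at 3.36, 3.05, 3.81, 3.20 and 4.44 CPM in ORX_Nx and at 2.93, 1.34, 2.05, 2.08 and 2.25 CPM in ORX_IH. The groups did not overlap, with -0.74 ± 0.17 on the log2 scale (edgeR BH-adjusted p = 0.0657). Kif11, a spindle kinesin that is not on the list, was at 1.25 to 2.79 CPM in ORX_Nx and 0.528 to 1.15 CPM in ORX_IH, with -1.15 ± 0.26 (edgeR BH-adjusted p = 0.064) and no overlap. ORX_Nx 5 was the highest mouse for Mcm2, Kif11, Top2a at 6.98 CPM and the proliferation marker Mki67 at 9.55 CPM. Mcm2 gave -0.67 and Kif11 gave -0.86 without ORX_Nx 4 and 5 (edgeR BH-adjusted p = 0.143 and 0.164).

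Interferon-stimulated genes were likewise lower in ORX_IH as a list. Of 30 tested, 29 were negative, the median was -0.48, 12 were lower at an unadjusted edgeR p under 0.05 (9.73% over all genes) and 0 were called. The median was -0.62 without ORX_IH 1 and 2, -0.54 without ORX_Nx 4 and 5, -0.70 without all 4 and -0.49 in sham-operated mice.

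Irf7, the transcription factor that amplifies type I interferon, was at 68.3, 53.3, 41.3, 53.7 and 92.0 CPM in ORX_Nx and at 28.7, 29.7, 23.7, 29.1 and 47.1 CPM in ORX_IH. ORX_IH 5 lay above ORX_Nx 3 and the other ORX_IH mice were below all of ORX_Nx. The log2 difference was -0.96 ± 0.22 (edgeR BH-adjusted p = 0.064, exact permutation p = 0.0159). The antiviral synthetase Oas2 gave -0.81 ± 0.22 and the guanylate-binding protein Gbp2 gave -1.13 ± 0.28, while Stat2 gave 0.04 ± 0.10.

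Macrophage markers were lower in ORX_IH in all 19 genes tested, with 0 calls, 13 at an unadjusted edgeR p under 0.05 (9.73% over all genes) and a median of -0.80. That difference moved with ORX_Nx 4 and 5: without them the median was -0.15, and in sham-operated mice it was -0.31. The marker sum was 747, 527, 450, 1569 and 1156 CPM in ORX_Nx and 553, 547, 469, 657 and 605 CPM in ORX_IH. Marco, a scavenger receptor of Kupffer cells, was at 101 and 54.97 CPM in ORX_Nx 4 and 5 and at 2.53 to 15.9 CPM in the other 8 mice. In whole liver, fewer cells of a type and less RNA per cell cannot be told apart.

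Acute phase and inflammation genes followed the same mice. The list had 27 of 34 negative. Its median was -0.56 with all mice, 0.09 without ORX_Nx 4 and 5 and 0.20 in sham-operated mice. Of the 34, 14 were lower and 0 higher at an unadjusted edgeR p under 0.05 (9.73% and 7.34% over all genes). Il1rn was the list's 1 call, and 0.0557% of all genes tested were called lower. The list's sum was 20696, 19995, 19252, 37446 and 29048 CPM in ORX_Nx and 25887, 23595, 19477, 23582 and 22329 CPM in ORX_IH. ORX_Nx 1 to 3 were each below at least 4 of the 5 ORX_IH mice. Saa1, serum amyloid A, was at 248 and 343 CPM in ORX_Nx 4 and 5, at 133.8 CPM in ORX_IH 1 and at 5.22 to 35.9 CPM in the other 7 mice.

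The 8 genes of antigen presentation by MHC class II had a median of -1.30, or -0.49 without ORX_Nx 4 and 5. All 8 were lower at an unadjusted edgeR p under 0.05 (9.73% over all genes), and 0 were called. Cd74, the invariant chain, was at 672 CPM in ORX_Nx 5 and at 35.02 to 148 CPM in the other 9 mice. Of 12 neutrophil markers 5 were tested, with a median of -1.84 with all mice and of 1.11 without ORX_Nx 4 and 5. Of these 5, 3 were lower at an unadjusted edgeR p under 0.05 (9.73% over all genes), and 0 were called. Summed over all 12 markers, tested or not, ORX_Nx 4 held 56.4 CPM, against 3.15 to 13.4 CPM in the other 9 mice. What these mice's inflammatory genes contribute to the calls for Il1rn and Hexa was not tested beyond the values without them.

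**Figure D4:**
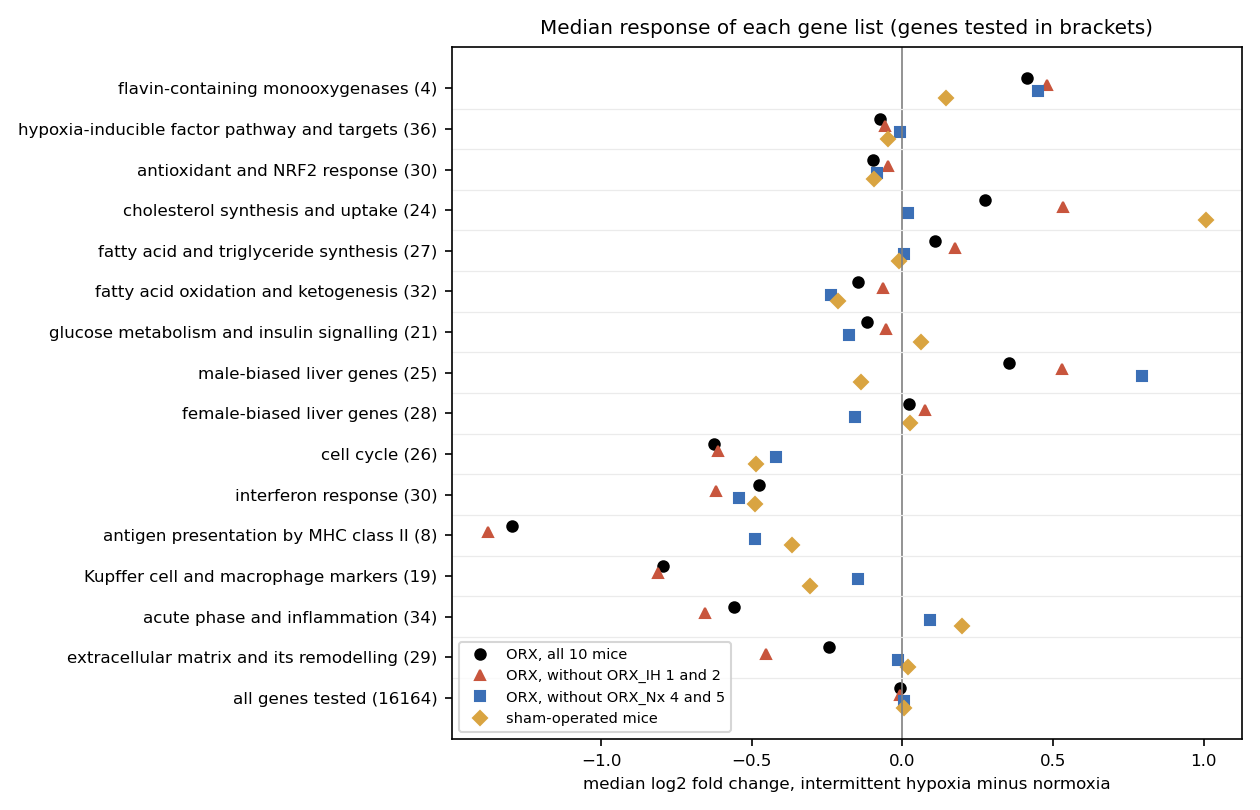
Median log2 fold change, intermittent hypoxia minus normoxia, of each gene list (number of genes tested in brackets) in orchiectomized mice, in the same mice without ORX_IH 1 and 2 or without ORX_Nx 4 and 5, and in sham-operated mice. The cell cycle list runs from -0.63 to -0.42 and the interferon list from -0.62 to -0.48 over the 4 symbols, whereas the acute phase list passes from -0.56 to 0.09 without ORX_Nx 4 and 5.

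Most male-biased liver genes had positive differences, at levels far below their level in sham-operated mice. The summed list was above the ORX_Nx range of 2022 to 3232 CPM only in ORX_IH 2 and ORX_IH 4, at 4476 and 5989 CPM. ORX_IH 1, 3 and 5 lay within that range, at 2348, 2509 and 2972 CPM. List medians without ORX_IH 4 were not calculated. Of 25 tested, 21 were positive, 8 were higher and 1 lower at an unadjusted edgeR p under 0.05 (7.34% and 9.73% over all genes), and 0 were called. The median was 0.36, 0.53 without ORX_IH 1 and 2 and 0.80 without ORX_Nx 4 and 5, and it was -0.14 in sham-operated mice. No gene of the list had groups that were apart.

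Hsd3b5, a steroid dehydrogenase and the gene of smallest p, was at 2.56, 1.80, 1.65, 0.703 and 0.391 CPM in ORX_Nx and at 1.77, 11.6, 8.49, 27.7 and 6.82 CPM in ORX_IH. ORX_IH 1 lay within the ORX_Nx range and the other 4 above it. Its log2 difference was 2.95 ± 0.59 (edgeR BH-adjusted p = 0.0506, exact permutation p = 0.0238), and sham-operated mice held 74.8 to 246 CPM. The log2 difference was 2.51 without ORX_Nx 4 and 5 (edgeR BH-adjusted p = 0.124).

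Slco1a1, an organic anion transporter, gave 2.10 ± 0.56 (log2 ± SE) and was highest in ORX_IH 4 at 171 CPM, as were the major urinary proteins Mup7 at 458 CPM and Mup20 at 334 CPM. Reads of the Mup genes can be split between near-identical copies. Mup20 gave 0.33 ± 0.39, a difference below its SE, and Cyp2d9, a male-biased cytochrome P450, gave 0.66 ± 0.32. Neither passed the test.

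Srd5a1, the steroid reductase that makes dihydrotestosterone, was at 28.8, 31.4, 29.9, 31.99 and 32.9 CPM in ORX_Nx and at 32.9, 48.0, 59.3, 102 and 51.4 CPM in ORX_IH. The lowest ORX_IH mouse was just above the highest ORX_Nx mouse, and 1.18% of all genes tested were higher with no overlap. The log2 difference was 0.92 ± 0.21 (edgeR BH-adjusted p = 0.064), or 1.20 without ORX_IH 1 and 2. In sham-operated mice Srd5a1 was at 89.6 to 148 CPM with a difference of 0.07 ± 0.22.

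Female-biased genes went both ways, with 15 of 28 positive and 0 calls in edgeR. At an unadjusted p under 0.05, 6 were higher and 3 lower, against 7.34% and 9.73% of all genes. Their median was 0.02, or -0.16 without ORX_Nx 4 and 5. Cux2, a female-biased repressor of male-biased genes, was at 6.30 to 11.1 CPM in ORX_Nx and at 28.0, 26.4, 36.0, 8.37 and 14.6 CPM in ORX_IH, with a log2 difference of 1.52 ± 0.31 (edgeR BH-adjusted p = 0.0506). ORX_IH 4, the mouse highest in Srd5a1, Hsd3b5 and Mup7, was the lowest ORX_IH mouse in Cux2. Hao2, a hydroxyacid oxidase, gave -2.69 ± 0.59 (edgeR BH-adjusted p = 0.0583).

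Lipid genes gave 1 call, Pparg, among the lists of synthesis, oxidation and cholesterol. Pparg is 1 of the 27 genes tested of the synthesis list, and 0.0557% of all genes tested were called lower. Genes of cholesterol synthesis and uptake were positive in 22 of 24, with 0 calls in edgeR, 1 higher at an unadjusted p under 0.05 (7.34% over all genes) and a median of 0.27. That median was 0.02 without ORX_Nx 4 and 5, 0.53 without ORX_IH 1 and 2, and 1.01 in sham-operated mice. Idi1, an isomerase of the isoprenoid route, gave 0.71 ± 0.31 (edgeR BH-adjusted p = 0.243).

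Of that list 1 member rose in sham-operated mice and is given for comparison, chosen after its values were seen. Sqle, squalene epoxidase, was at 30.3 to 59.7 CPM in ORX_Nx and 31.4 to 99.1 CPM in ORX_IH, with 0.62 ± 0.33, against 10.2 to 29.1 CPM in Sham_Nx and 52.7 to 100.3 CPM in Sham_IH, with 2.16 ± 0.37. The difference between the responses was -1.53 ± 0.48 for Sqle (edgeR BH-adjusted p = 0.654), which did not pass.

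Genes of fatty acid oxidation were negative in 26 of 32, with 0 calls. At an unadjusted edgeR p under 0.05, 2 were higher and 4 lower, against 7.34% and 9.73% of all genes. Their median was -0.15, which was -0.06 without ORX_IH 1 and 2 and -0.24 without ORX_Nx 4 and 5. Cpt1a, which admits long-chain fatty acids to mitochondria, was at 546, 661, 597, 655 and 597 CPM in ORX_Nx and at 448, 456, 412, 498 and 517 CPM in ORX_IH. The groups were apart by a small margin, with -0.39 ± 0.09 (edgeR BH-adjusted p = 0.0659) and -0.40 ± 0.10 in sham-operated mice. Cpt1a was the 1 gene of the 32 with groups apart, against 1.12% of all genes that were lower with no overlap.

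Pdk4, the pyruvate dehydrogenase kinase that muscle also expresses, was at 73.4 and 34.96 CPM in ORX_IH 1 and 2 and at 3.85 to 9.40 CPM in the other 8 mice. Its log2 difference of 1.86 ± 0.52 was 0.12 without ORX_IH 1 and 2. Genes of fatty acid and triglyceride synthesis were positive in 17 of 27, with a median of 0.11 that was 0.17 without ORX_IH 1 and 2 and below 0.01 without ORX_Nx 4 and 5. Scd1, the desaturase, was at 2228 to 5784 CPM in ORX_Nx and at 960, 1954, 930, 5973 and 2965 CPM in ORX_IH, and its -0.87 ± 0.48 lay within that spread.

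No gene of glucose metabolism passed the test, and 1 of 21 had groups that were apart, against 1.12% of all genes that were lower with no overlap. Igfbp1, which is repressed by insulin, was at 23.2, 38.9, 36.2, 103 and 28.0 CPM in ORX_Nx and at 11.2, 4.72, 11.7, 21.1 and 7.78 CPM in ORX_IH. The groups did not overlap, with -2.02 ± 0.51 on the log2 scale (edgeR BH-adjusted p = 0.0739). This difference was -1.52 without ORX_Nx 4 and 5 (edgeR BH-adjusted p = 0.21).

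Pck1, the gluconeogenic carboxykinase, gave -1.09 ± 0.36 (edgeR BH-adjusted p = 0.128), with ORX_IH 4 at 1134 CPM inside the ORX_Nx range of 933 to 1839 CPM. Over the 21 glucose genes 5 were positive and 16 negative, with 0 calls in edgeR. At an unadjusted p under 0.05, 2 were higher and 7 lower, against 7.34% and 9.73% of all genes. Their median was -0.12, which was -0.05 without ORX_IH 1 and 2 and -0.18 without ORX_Nx 4 and 5.

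No gene of the antioxidant response passed the test. Of 30 tested 23 were negative, 0 passed in edgeR, 0 were higher and 7 lower at an unadjusted p under 0.05 (7.34% and 9.73% over all genes), and the median was -0.10. It was -0.05 without ORX_IH 1 and 2 and -0.01 without all 4 libraries that stood apart. Nfe2l2, which encodes NRF2, the regulator of this response, was at 69.6, 69.7, 73.9, 74.5 and 70.9 CPM in ORX_Nx and at 60.7, 58.2, 53.7, 64.9 and 62.3 CPM in ORX_IH. The groups were apart, with -0.26 ± 0.05 (edgeR BH-adjusted p = 0.0506). Of the 30 genes 2 were lower with no overlap, Nfe2l2 and Gsta1, against 1.12% of all genes tested. Gsta1, a glutathione transferase, was at 1.46 to 14.1 CPM in ORX_Nx and 0.245 to 0.795 CPM in ORX_IH, with -3.27 ± 0.63 (edgeR BH-adjusted p = 0.0506) and -2.37 without ORX_Nx 4 and 5.

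Groups were also apart for single genes of other lists. These were 1 of 20 hepcidin and iron genes, 1 of 21 bile acid genes, 1 of 25 unfolded protein response genes and 1 of 29 matrix genes. Over all genes tested, 1.18% were higher and 1.12% lower with no overlap. Hamp2, a hepcidin gene, was at 222, 276, 208, 152 and 105.5 CPM in ORX_Nx and at 59.9, 80.7, 21.2, 90.8 and 83.3 CPM in ORX_IH, with -1.52 ± 0.36 (edgeR BH-adjusted p = 0.0688). Cyp27a1, the sterol hydroxylase of the acidic bile acid route, was at 184 to 298 CPM in ORX_Nx and 303 to 427 CPM in ORX_IH, with 0.42 ± 0.11 (edgeR BH-adjusted p = 0.0826). In the 21 bile acid genes 14 were positive with a median of 0.08, which was -0.02 without ORX_Nx 4 and 5. The 20 hepcidin and iron genes had 15 negative differences and a median of -0.08, which was -0.02 without ORX_Nx 4 and 5.

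Atf4, a transcription factor of the stress response, gave 0.33 ± 0.08 (edgeR BH-adjusted p = 0.0736), Alas2, the erythroid heme synthesis enzyme, gave -0.70 ± 0.16 (0.0659) and the collagen gene Col6a3 gave -0.68 ± 0.18 (0.0772), each with no overlap. With ORX_Nx 4 and 5 left out, the differences were 0.28 for Atf4, -0.49 for Alas2 and -0.52 for Col6a3. Their edgeR BH-adjusted p-values were then 0.222, 0.234 and 0.235. Alas2 does not stand for its list. Of the 10 erythroid markers tested, 7 were positive and 3 negative, with a median of 0.15 that was -0.14 without ORX_IH 1 and 2. Bpgm was apart and higher, and Slc4a1 was apart and lower like Alas2. In the list of extracellular matrix genes, to which Col6a3 belongs, 21 of 29 were negative with a median of -0.24, which was -0.01 without ORX_Nx 4 and 5 and -0.45 without ORX_IH 1 and 2. Nuclear-encoded respiratory chain genes were positive in 31 of 34, with 9 higher at an unadjusted edgeR p under 0.05 (7.34% over all genes), 0 calls and a median of 0.08 that was 0.01 without ORX_Nx 4 and 5. For all 34 the 95% interval lay within a 2-fold change either way.

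Skeletal muscle genes had large differences that rested on 2 mice. All 18 fast-fibre genes were positive with all mice, with a median of 6.17 and 0 calls. All 18 were higher at an unadjusted edgeR p under 0.05 (7.34% over all genes). Without ORX_IH 1 and 2 the median was -0.85 over the members that still passed the filter on low counts, which Pvalb did not. Tnnt3, fast troponin T, was at 117 and 67.2 CPM in ORX_IH 1 and 2 and at 0.0138 to 0.950 CPM in the other 8 mice. The 5 genes that the rule named for a higher response in ORX than in sham mice were muscle genes, Myl1, Pvalb, Tnnt3, Tnnc2 and Acta1. Sham_Nx 2 and Sham_Nx 3 also held muscle RNA, with 189.5 and 50.9 CPM over the fast-fibre list.

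The response after orchiectomy was set beside that after sham operation in 1 fit over all 4 groups. The difference between the responses was called for 0 of 16164 genes (0%) in edgeR, with 1025 genes at an unadjusted p under 0.05 and a smallest adjusted p of 0.224, and DESeq2 called 62. In sham-operated mice 49 genes (0.303%) passed, 16 higher and 33 lower. Of these, 48 had the same sign in orchiectomized mice, the exception being Trim37, and 3 passed there too: Ptpn3, Pparg and Hexa. Of the 12 genes called in orchiectomized mice, Aldh3b3 had too few counts in sham-operated mice to compare, and 10 of the other 11 had the same sign there.

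Sizes differed in the direction that the choice of genes favours. Over the 49 genes chosen by the sham test the median absolute log2 difference was 0.52 in sham and 0.30 in orchiectomized mice. Slco1a4, an organic anion transporter, rose by 1.46 ± 0.22 in sham-operated mice and gave 0.28 ± 0.20 in orchiectomized mice, where it was already at 147 to 234 CPM in ORX_Nx against 21.2 to 60.8 CPM in Sham_Nx. The difference of its responses was -1.18 ± 0.30 (edgeR BH-adjusted p = 0.289).

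Scpep1 was the 1 called gene with opposite signs. In sham-operated mice it was at 29.3 to 34.0 CPM in Sham_Nx and 31.6 to 36.6 CPM in Sham_IH, a log2 difference of 0.07 ± 0.06, so both sham groups lay below the ORX_IH range of 36.7 to 42.5 CPM. The difference of its responses, -0.41 ± 0.08, had an unadjusted p of 4.16e-05 and an edgeR BH-adjusted p of 0.224. Kng2, a kininogen, gave -0.22 ± 0.08 after orchiectomy and 0.33 ± 0.08 after sham operation, and Spp1, osteopontin, gave -0.36 ± 0.10 and 0.26 ± 0.11. For both the adjusted p of the difference was 0.224 in edgeR.

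**Figure D5:**
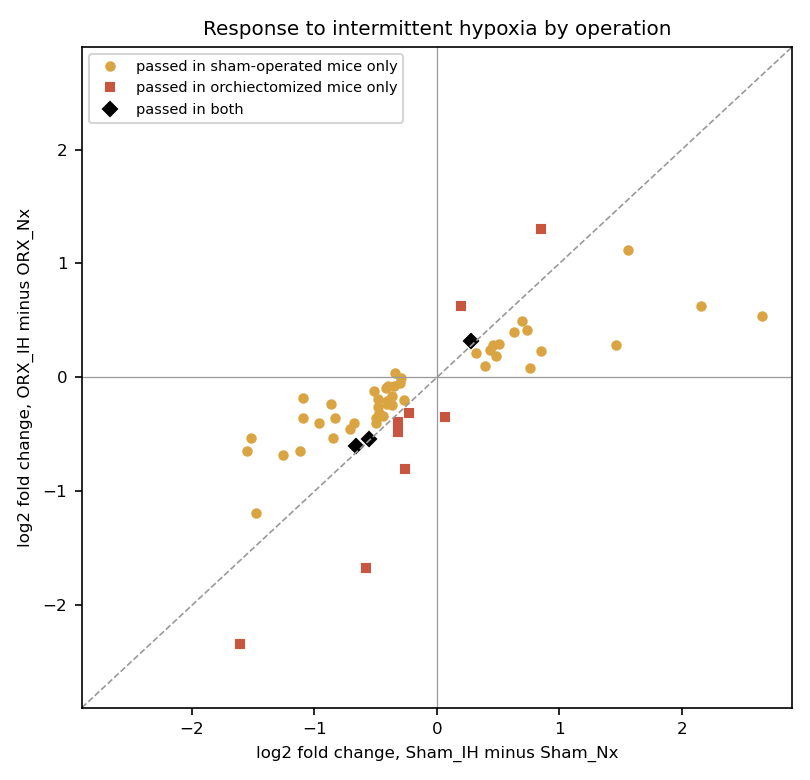
Log2 fold change of intermittent hypoxia in orchiectomized mice against that in sham-operated mice for genes that passed in either; the dashed line marks equal responses, and gold circles, red squares and black diamonds mark genes that passed in sham-operated mice only, in orchiectomized mice only and in both. Of the 49 genes that passed in sham-operated mice 48 have the same sign in orchiectomized mice.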

How the data were processed

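Poly(A)-selected, directional libraries were made from frozen liver, per the labels' protocols. The submitters' processing notes name bcl2fastq 2.20, fastp 0.23.2, FastQC 0.11.9, MultiQC 1.12, kallisto 0.46.1 and build GRCm39. Gene-level estimated counts, 27.5% of them not whole, are what the authors deposited, along with a normalized log2 table that was used as an alternative only. kallisto can split reads between near-identical genes such as Mup, Cyp2b, Cyp2a, Cyp4a and Sult3a, whose values are uncertain.

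Counts were rounded to whole numbers. Genes passing filterByExpr with a minimum count of 10 were fitted with edgeR 4.0.16 (R 4.3.3) by quasi-likelihood over all 4 groups (19 libraries) with TMM scaling, and p-values were BH-adjusted over 16164 genes. The contrasts were ORX_IH against ORX_Nx, Sham_IH against Sham_Nx and the difference of the 2. CPM used the TMM-scaled library size. SE is the log2 fold change over the square root of F. The fit was tested on simulated data. Of all genes, 124 shared a symbol and were named by identifier. Replicates are the mice numbered in the labels.

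The gene lists, 46 in all, and the rules were chosen with earlier results of these data known. Named genes were those called, up to 6 per direction by fold change with a mean of at least 1 CPM, the list member of smallest p where none was called, the listed flavin-containing monooxygenases, and the 5 genes per direction with the smallest p for the difference. Genes named Gm or ending in Rik were passed over. The 5 genes per direction with the smallest p without ORX_IH 1 and 2 were also named, Kif11 among them. Not all genes named by these rules are described. Examples are Tiam2 (log2 difference 0.56, edgeR BH-adjusted p = 0.0506), Smad9 (0.66, 0.0987) and Zfp945 (-0.17, 0.256). Most other genes in the text are examples of their list. Alternatives used DESeq2 1.42.0, limma 3.58.1, other scalings and filters, and fits without given libraries. Each fit without given libraries filtered genes anew, so its list medians are over the members kept. Some genes are not reported here and are left out of the lists and their counts.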

Additional observations from a re-analysis of the deposited data

Results flagged for a closer look

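Values were compared as log2 of CPM plus 0.05, and are given below as CPM. A mouse was marked where its gap on that scale to the nearest of the 5 mice in its group, divided by the range, passed Dixon's critical value of 0.71. Of 74 sets of 5 mice 9 were marked, and chance flags about 1 in 20 groups. Among genes, Kif11 was high in ORX_Nx 5 at 2.79 CPM, Pik3c3 was high in ORX_IH 5 at 17.95 CPM, and Fmo2 was low in ORX_IH 4 at 60.01 CPM.

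Among marker sums, ORX_IH 1 was high for cardiac muscle at 5.28 CPM, adipocytes at 88.3 CPM, pancreatic acinar cells at 278 CPM and lymphocytes at 90.9 CPM. ORX_Nx 5 was high for fast-fibre muscle at 14.3 CPM, and ORX_Nx 2 was low for sinusoidal endothelium at 404.5 CPM.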

How the results depend on the processing

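The main counts were 3 genes higher and 9 lower in ORX_IH, and 0 for the difference from sham. Scaling by RLE gave 7 higher and 9 lower, no scaling 3 and 13, limma-voom 7 and 9, DESeq2 314 and 392 (62 for the difference), library numbers 1 to 16 alone 0 and 8, a fit of the ORX groups alone 0 and 1, leaving out ORX_Nx 4 and 5 gave 11 and 29 (5 of the 12 among them), and leaving out ORX_IH 1, ORX_IH 2, ORX_Nx 4 and ORX_Nx 5 gave 2 and 0. Calls were 0 and 0 with no filter on low counts, with muscle level as a covariate, without ORX_IH 1 and 2, without the 4 libraries that had most muscle RNA, without the 3 that had most pancreatic RNA, and with limma-trend on the authors' log2 table. Leaving out 1 library at a time gave 0 to 71 higher and 0 to 175 lower genes and 0 for the difference. The total was 0 without ORX_Nx 4, ORX_IH 2, Sham_Nx 5 or Sham_IH 1, 2, 3 or 5, 1 without Sham_Nx 2, 2 without Sham_Nx 3, 3 without ORX_IH 3 or ORX_IH 5, 30 without Sham_Nx 4, 82 without ORX_IH 4, 127 without ORX_Nx 5, 212 without ORX_Nx 2 and 232 without ORX_Nx 3. The cause was not tested. Over the 34 alternatives each of the 12 genes kept its sign and was called in 8 (Il1rn) to 16 (Scpep1).

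With the mouse number as a replicate block, 0 genes were higher and 0 lower in edgeR, with 2572 at an unadjusted p under 0.05. Same-numbered mice correlated at -0.197, -0.0785, 0.182, 0.0157 and -0.0794 in their deviations, and only number 3 correlated best with its own number. With 1 value per number, these correlations cannot tell whether same-numbered mice shared handling, which was not tested. ORX_Nx 5 and ORX_IH 5 had library numbers 17 and 18, against 1 to 8 in the other ORX mice. They also had the lowest total counts of their groups, at 30.6 and 35.7 M. For 76.5% of genes the 95% interval lay within a 2-fold change either way.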
